A study of Homo sapiens with 16 samples.

Results

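A set of 10 chemokine receptor genes was examined for H3K27me3 and H3K4me3 in myeloma cells expressing different forms of the histone methyltransferase NSD2. They were CXCR3, CXCR4, CXCR5, CCR1, CCR2, CCR6, CCR7, CCR9, CCR10 and CX3CR1, chosen by name, and all 10 matched a RefSeq record among 19970 protein-coding genes (GRCh38.p14, chromosomes 1 to 22 and X). The cells were TKO, which the labels describe as plasma cells of genotype KMS-11 WHSC1(+/-). KMS-11 is a human myeloma line and WHSC1 an older name of NSD2. All groups share that background. The 4 groups were cells labelled with the NSD2 substitution D1240A, cells labelled F1295A, plain TKO cells with no added form named, and cells labelled WT for wild type NSD2. The labels do not say how a form was introduced or whether a line is a single clone. Per form there were 2 samples for H3K27me3, 1 for H3K4me3 and 1 for IgG, 16 in all, assayed by ChIPmentation, in which a transposase adds adaptors to immunoprecipitated chromatin. IgG was not analysed here. The data were 8 peak lists, 1 for each form and mark. Both H3K27me3 samples of a form share a list, so no difference between forms has a replicate check, no test was possible and no p-values are given. Sequencing depth is unknown, as peak lists carry no totals of reads.

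Chemokine receptors are G protein-coupled receptors that steer leukocytes along gradients of small secreted proteins. CXCR4 holds plasma cells in bone marrow niches that secrete its ligand CXCL12, and CCR10 guides antibody-secreting cells to mucosa and skin. B cells use CXCR5 and CCR7 to enter follicles and T cell zones of lymphoid organs and switch both off as they become plasma cells. H3K27me3 is written by Polycomb repressive complex 2 and lies at silent genes, while H3K4me3 lies at active or poised promoters. NSD2 methylates H3K36.

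The lists held 2188 H3K27me3 peaks in D1240A, 2083 in F1295A, 5881 in TKO and 3790 in WT, and 7712, 8239, 7396 and 8140 H3K4me3 peaks in the same order. With H3K27me3 lists so unequal in length, ranks within a list show no change between forms. A gene was counted as marked where a peak met its record or the 10 kb on either side by at least 1 bp. Of 8 plasma cell markers, 6 had H3K4me3 in all 4 forms, as did 46.6% of all genes, and CD38 had no peak of either mark. SDC1 had H3K4me3 in F1295A and WT only, with 3.20 and 2.80 kb marked, and H3K27me3 over 8.28 kb in D1240A, 13.3 kb in F1295A, 8.56 kb in TKO and 9.995 kb in WT. H3K4me3 was at 0 of 7 T and NK cell markers, 1 of 5 myeloid markers and 3 of 6 B cell markers in every form. H3K27me3 was at 1 of the T and NK cell markers (CD4) in every form. It was at 2 B cell markers in every form, and in WT also at BCL6 (6.73 kb). Of the myeloid markers it was at 1 in D1240A and 3 in each other form. CSF1R had 0 kb in D1240A, 9.96 kb in F1295A, 24.3 kb in TKO and 16.9 kb in WT. For MPO these were 0, 10.6, 21.1 and 18.7 kb. Over all genes, 9.36% to 18.4% had H3K27me3 in a form.

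H3K27me3 was at CXCR4, CXCR5 and CCR7 in every form, so 3 of 10 receptor genes in each, beside 9.36% of all genes in D1240A, 9.93% in F1295A, 18.4% in TKO and 16.1% in WT. H3K4me3 was at CXCR4 and CCR10 in every form, so 2 of 10 in each, beside 49.2% of all genes in D1240A, 52.1% in F1295A, 47.5% in TKO and 51.4% in WT. CXCR3, CCR1, CCR2, CCR6, CCR9 and CX3CR1 had neither mark in any form, 6 of 10 beside 35.8% of all genes. CXCR5 and CCR7 carried H3K27me3 alone throughout, a pattern of 5.02% of all genes. CCR10 had the opposite pattern, shared by 39.0% of all genes, and CXCR4 had both marks in all 4 forms, as did 2.76%. For all 10 receptor genes both marks were called alike in the 4 forms, beside 82.6% of all genes. The median receptor gene had 0 kb of either mark in every form, while the median over all genes was 0 kb except for H3K4me3 in F1295A (2.17 kb) and WT (1.85 kb).

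**Figure D1:**
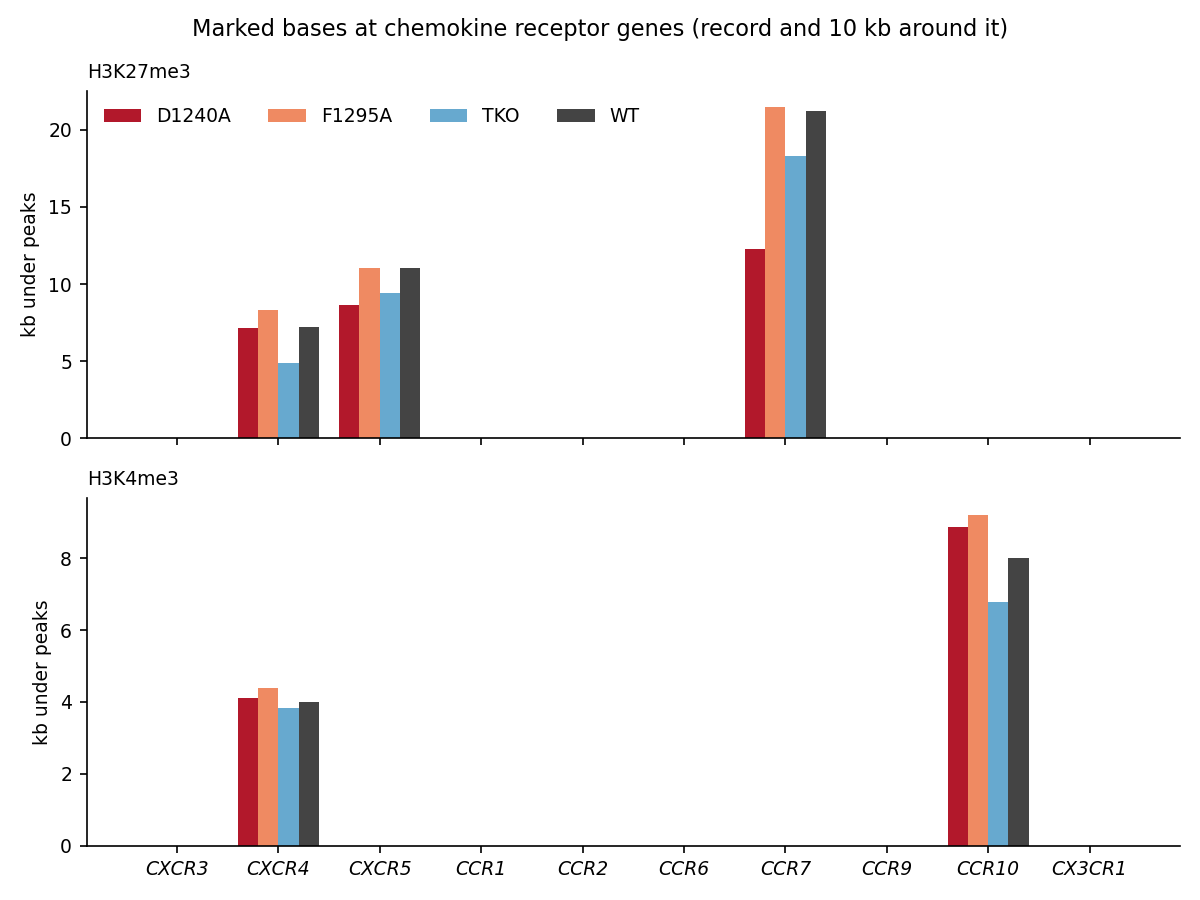
Bases (kb) under H3K27me3 peaks (top) and H3K4me3 peaks (bottom) in the record of each receptor gene and the 10 kb around it, with 1 bar per form and 1 peak list behind each bar. CXCR4, CXCR5 and CCR7 have H3K27me3 and CXCR4 and CCR10 have H3K4me3 in all 4 forms, and the other 6 genes have no bar.

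Promoter sequence differed across these genes, and the starts are shown here because CXCR4, whose listed starts lay under H3K4me3, holds the most CG of the genes with an entry, CG being the dinucleotide that CpG island promoters are dense in. The RefSeq promoter table (GRCh38.p14) held 15 starts of 8 of the 10 genes, each with 250 bases before and 50 after the start. CCR7 and CCR10 had no entry. CG dinucleotides are in capitals, and each run reads 5′ to 3′ on the gene's own strand. They come from chr2:136118100-136118399 (minus strand, CXCR4), chr11:118893142-118893441 (plus strand, CXCR5), chr3:46208264-46208563 (minus strand, CCR1) and chrX:71618462-71618761 (minus strand, CXCR3).
CXCR4: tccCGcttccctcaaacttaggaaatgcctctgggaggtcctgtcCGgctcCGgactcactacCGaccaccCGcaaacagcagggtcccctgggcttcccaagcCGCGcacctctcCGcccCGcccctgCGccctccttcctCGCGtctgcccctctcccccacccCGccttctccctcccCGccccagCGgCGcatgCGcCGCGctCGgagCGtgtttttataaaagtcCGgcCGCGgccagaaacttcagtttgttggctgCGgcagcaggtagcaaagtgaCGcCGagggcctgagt
CXCR5: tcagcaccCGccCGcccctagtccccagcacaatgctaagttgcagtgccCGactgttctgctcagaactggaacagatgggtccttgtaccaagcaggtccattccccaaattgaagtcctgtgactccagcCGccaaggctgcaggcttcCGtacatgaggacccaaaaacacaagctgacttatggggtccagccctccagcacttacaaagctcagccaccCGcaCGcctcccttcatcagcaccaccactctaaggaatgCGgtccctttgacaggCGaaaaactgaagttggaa
CCR1: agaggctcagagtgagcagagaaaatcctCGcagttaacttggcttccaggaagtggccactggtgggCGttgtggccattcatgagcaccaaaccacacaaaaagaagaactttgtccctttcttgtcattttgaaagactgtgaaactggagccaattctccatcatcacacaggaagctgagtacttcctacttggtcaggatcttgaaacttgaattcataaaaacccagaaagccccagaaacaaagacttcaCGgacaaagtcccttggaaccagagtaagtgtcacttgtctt
CXCR3: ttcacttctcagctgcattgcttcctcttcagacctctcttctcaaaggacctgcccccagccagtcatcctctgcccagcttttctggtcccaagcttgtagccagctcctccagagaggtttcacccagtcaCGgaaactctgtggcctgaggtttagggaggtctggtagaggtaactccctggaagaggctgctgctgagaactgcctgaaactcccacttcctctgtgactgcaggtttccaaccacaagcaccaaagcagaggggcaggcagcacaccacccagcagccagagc

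The CXCR4 run holds 27 CG, more than 71.8% of the 34961 promoters in the table. The CXCR5 run holds 9, the CCR1 run 3 and the CXCR3 run 1. Over all starts, the median was 28 CG where an H3K4me3 peak covered the start and 6 where none did, and these medians were equal in the 4 forms. All 3 listed CXCR4 starts, with 27, 14 and 9 CG, lay under H3K4me3 in every form. The other 12 starts, with 1 to 11 CG, lay under no peak of either mark. The listed CXCR5 start lies inside its record. The 5′ end of that record, which is not among the listed starts, lay under H3K27me3 in every form. The letters GGGCGG (a GC box), read on both strands with overlapping matches counted, occur at 3 places in the first CXCR4 run and are in 45.0% of promoters. The core promoter element spelled TATAAA was also found there, on both strands over overlapping bases, and is in 11.5% of promoters. These matches are descriptions of letters, not of bound factors.

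**Figure D2:**
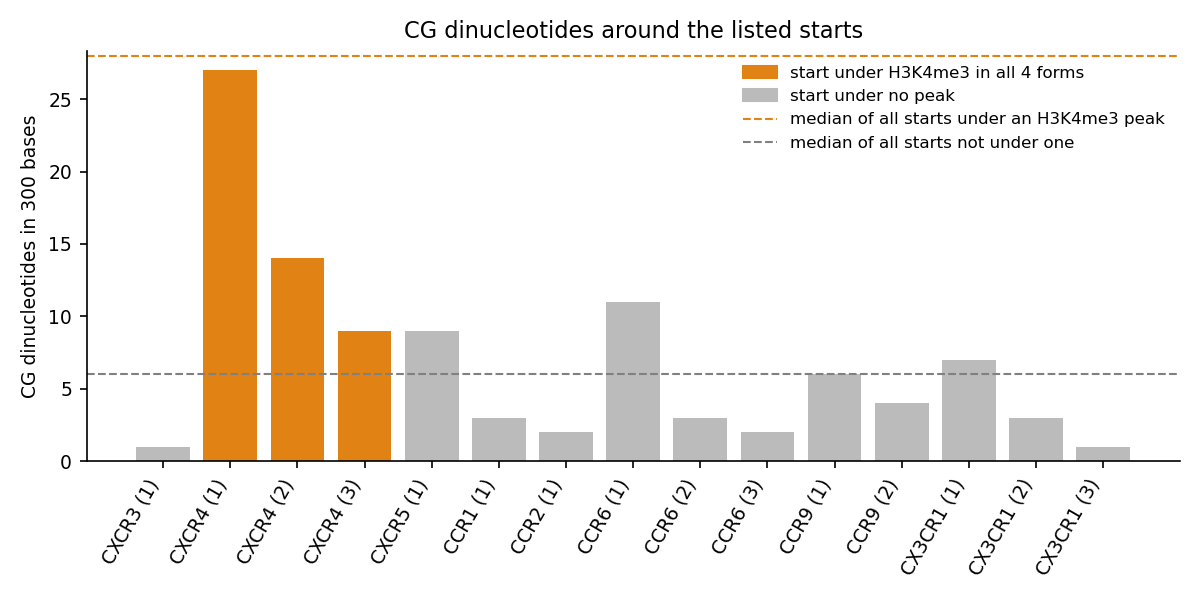
CG dinucleotides in the 300 bases around each listed start, ordered within a gene by that number. Orange bars are starts under H3K4me3 in all 4 forms, grey bars are starts under no peak, and the dashed lines are the medians of all starts under (28) and not under (6) an H3K4me3 peak.

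CXCR4 (chromosome 2, 136114349 to 136118149) was the receptor gene with both marks, H3K4me3 over its start and H3K27me3 just upstream of it. The H3K4me3 peak was 4.10 kb wide in D1240A, 4.39 kb in F1295A, 3.82 kb in TKO and 3.99 kb in WT. It reached 1.60 to 1.83 kb upstream of the start and 2.22 to 2.60 kb into the gene, covering 58.3% to 68.5% of the record. Its highest signal stood 733 to 825 bp downstream of the start. All forms had the peak at nearly the same place: 3.82 of 4.43 kb marked in any form were marked in all, or 86.2%, against a median of 64.5% over the 9312 genes with H3K4me3 in all 4 forms (percentile 97.0 among them). The peak was wide but not dense. Its mean signal (the authors' total signal divided by peak width) was 0.63 times the median peak of its own list in D1240A, 0.69 times in F1295A, 0.58 times in TKO and 0.54 times in WT, while its width stood between percentiles 68.2 and 83.6.

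H3K27me3 beside CXCR4 covered 10.3 kb in D1240A, 12.5 kb in F1295A, 7.89 kb in TKO and 11.2 kb in WT, and none of it lay inside the record. Its near edge was 2.83 kb upstream of the start in D1240A, 1.66 kb in F1295A, 5.13 kb in TKO and 2.78 kb in WT. The far edge was at 13.2 kb in D1240A, 14.1 kb in F1295A, 13.0 kb in TKO and 14.0 kb in WT. Against WT, F1295A and TKO thus differed more on the side facing the promoter, and D1240A more at the far edge. Between the marks lay 1002 bp in D1240A, 3524 bp in TKO and 1154 bp in WT, while in F1295A they overlapped by 133 bp. Inside the window the marked length was 7.17 kb in D1240A, 8.34 kb in F1295A, 4.87 kb in TKO and 7.22 kb in WT. Relative to WT this was 0.99 in D1240A, 1.16 in F1295A and 0.68 in TKO, where the medians over genes marked in both lists were 0.78, 0.91 and 0.97. For TKO over WT the middle 50% of those genes ran between 0.79 and 1.16, so the CXCR4 ratio was below it. Peak density was modest here too, at 0.49, 0.49, 0.95 and 0.69 times the list median in D1240A, F1295A, TKO and WT. Counting peaks that touch the record or lie within 1 kb of it leaves out this H3K27me3 in all forms. With equal peak numbers per list it was present in D1240A and F1295A and absent in TKO and WT. The number kept, 2083, was the whole F1295A list, so nothing was removed there. By total signal the peak ranked 1983 in D1240A, 1911 in F1295A, 3040 in TKO and 2190 in WT. With only the stronger 50% of each list by total signal, neither mark was left at CXCR4 in any form.

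**Figure D3:**
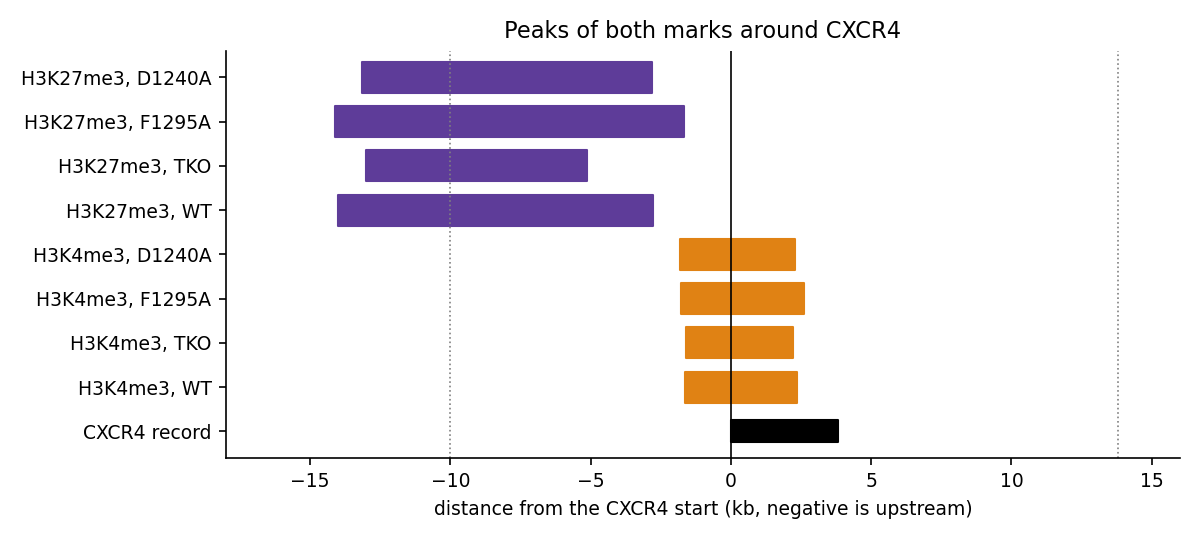
H3K27me3 (purple) and H3K4me3 (orange) peaks around CXCR4 in each form, by distance from its start in kb, with transcription running to the right and dotted lines 10 kb beyond the record. H3K4me3 spans the start in every form, and the near edge of H3K27me3 lies 1.66 kb upstream in F1295A and 5.13 kb upstream in TKO.

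CCR10 (chromosome 17, 42678889 to 42681843), the receptor for CCL27 and CCL28, lay wholly or partly under one of the strongest H3K4me3 peaks of every list. The peak was 8.85 kb wide in D1240A, 9.21 kb in F1295A, 6.77 kb in TKO and 8.02 kb in WT, above the 97th percentile of width in each. By total signal it ranked 36 of 7712 in D1240A, 44 of 8239 in F1295A, 32 of 7396 in TKO and 27 of 8140 in WT. Its mean signal was 2.22, 2.49, 2.25 and 2.69 times the list median in the same order. No H3K27me3 peak lay closer than 180.8 kb in any form.

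This peak was not centred on CCR10. It also covered the start of PLEKHH3, a minus-strand gene whose record has its higher end 1.90 kb below the CCR10 record. The highest signal stood 53 bp inside PLEKHH3 from that end in D1240A, 730 bp in F1295A, 577 bp in TKO and 78 bp in WT. This was 1.95 to 2.63 kb below the CCR10 record. Of the CCR10 record, 66.0% was covered in D1240A, 57.8% in TKO and 68.8% in WT. The higher end of the record was left uncovered in these forms, by 1005 bp in D1240A, 1248 bp in TKO and 923 bp in WT. In F1295A all of the record was covered, and the peak ended 350 bp beyond its higher end. With no CCR10 entry in the promoter table, its start was not placed within the record. The peak covered the lower end of the record in every form and the higher end in F1295A only. A start at the higher end would thus lie under the peak in F1295A only. The marked length at CCR10 thus comes from a peak whose highest signal lies inside a neighbour's record, and which gene the mark belongs to was not tested.

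CXCR5 (chromosome 11, 118883892 to 118897787), which brings B cells into follicles, carried H3K27me3 over the lower part of its record and no H3K4me3. The peak was 8.61 kb wide in D1240A, 11.02 kb in F1295A, 9.41 kb in TKO and 11.04 kb in WT. It covered the lower end of the record, the 5′ end of this plus-strand gene, and between 56.2% and 61.9% of its length in every form. Its outer edge lay 0.80 kb beyond the lower end in D1240A and in TKO, at the same base, against 3.03 kb in F1295A and 3.16 kb in WT. The inner edge stopped short of the start listed in the promoter table (118893392) by 1.69 kb in D1240A, 1.52 kb in F1295A, 0.90 kb in TKO and 1.63 kb in WT. Of 11.8 kb marked in any form, 8.61 kb were marked in all, or 73.2%. The median over the 1665 genes with H3K27me3 in all 4 forms was 56.9% (CXCR5 at percentile 69.1 among them). The other shared parts were near the medians: for H3K27me3 58.4% at CXCR4 and 56.4% at CCR7, and for H3K4me3 66.3% at CCR10, beside a median of 64.5%. Mean signal at CXCR5 was 0.85 times the list median in D1240A, 0.89 in F1295A, 1.24 in TKO and 1.23 in WT. The nearest H3K4me3 peak, at the far end of BCL9L, was 25.5 to 26.6 kb away. With only the stronger 50% of each list by total signal, CXCR5 kept H3K27me3 in TKO and WT and lost it in D1240A and F1295A. By total signal its peak ranked 1461 in D1240A, 1327 in F1295A, 1992 in TKO and 1383 in WT. The lost F1295A peak thus ranked above the kept ones, as the cut falls at a different rank in lists of unequal length.

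CCR7 (chromosome 17, 40553769 to 40565472), the receptor for CCL19 and CCL21, had the most H3K27me3 of the receptor genes. A peak of 12.2 kb in D1240A, 20.7 kb in F1295A, 18.3 kb in TKO and 20.3 kb in WT lay over the gene. It covered the whole record in F1295A, TKO and WT and 99.5% in D1240A, where it began 57 bp inside the lower end. In the other forms the peak ran on past that end for 7.32 kb in F1295A, 5.48 kb in TKO and 6.88 kb in WT. Marked length in the window was 12.2 kb in D1240A, 21.5 kb in F1295A, 18.3 kb in TKO and 21.2 kb in WT. The D1240A value was 0.58 of WT, beside a median of 0.78 and a middle 50% of 0.53 to 0.95 over the 1841 genes marked in both lists. This ratio depended on the window: it was 0.995 within the record alone, 0.89 with 1 kb around it and 0.69 with 25 kb, so the D1240A difference lay outside the gene. For F1295A the ratio was 1.01 and for TKO 0.86. H3K4me3 was no closer than 80.5 kb, at SMARCE1.

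A second H3K27me3 peak lay below CCR7 and was found in all 4 forms once the window was widened to 25 kb. Its near edge was 10.7 kb from the record in D1240A, 9.25 kb in F1295A, 12.1 kb in TKO and 9.03 kb in WT, so the 10 kb window took it in for F1295A and WT only. Between this peak and the one over the gene lay 10.7 kb in D1240A, 1.92 kb in F1295A, 6.65 kb in TKO and 2.15 kb in WT. Within the same list, the mean signal of the outer peak was 0.48 times that of the CCR7 peak in D1240A, 0.57 times in F1295A, 0.65 times in TKO and 1.501 times in WT. By highest signal the ratios were 0.47, 0.47, 0.49 and 0.73. WT was thus the form with the densest outer peak relative to the gene, and the only form in which its mean signal exceeded that of the gene. In WT the mean was 54.9% of the highest signal in this outer peak, above 98.4% of the peaks of that list. How the replicates were combined is unknown, and its part in this value was not tested.

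**Figure D4:**
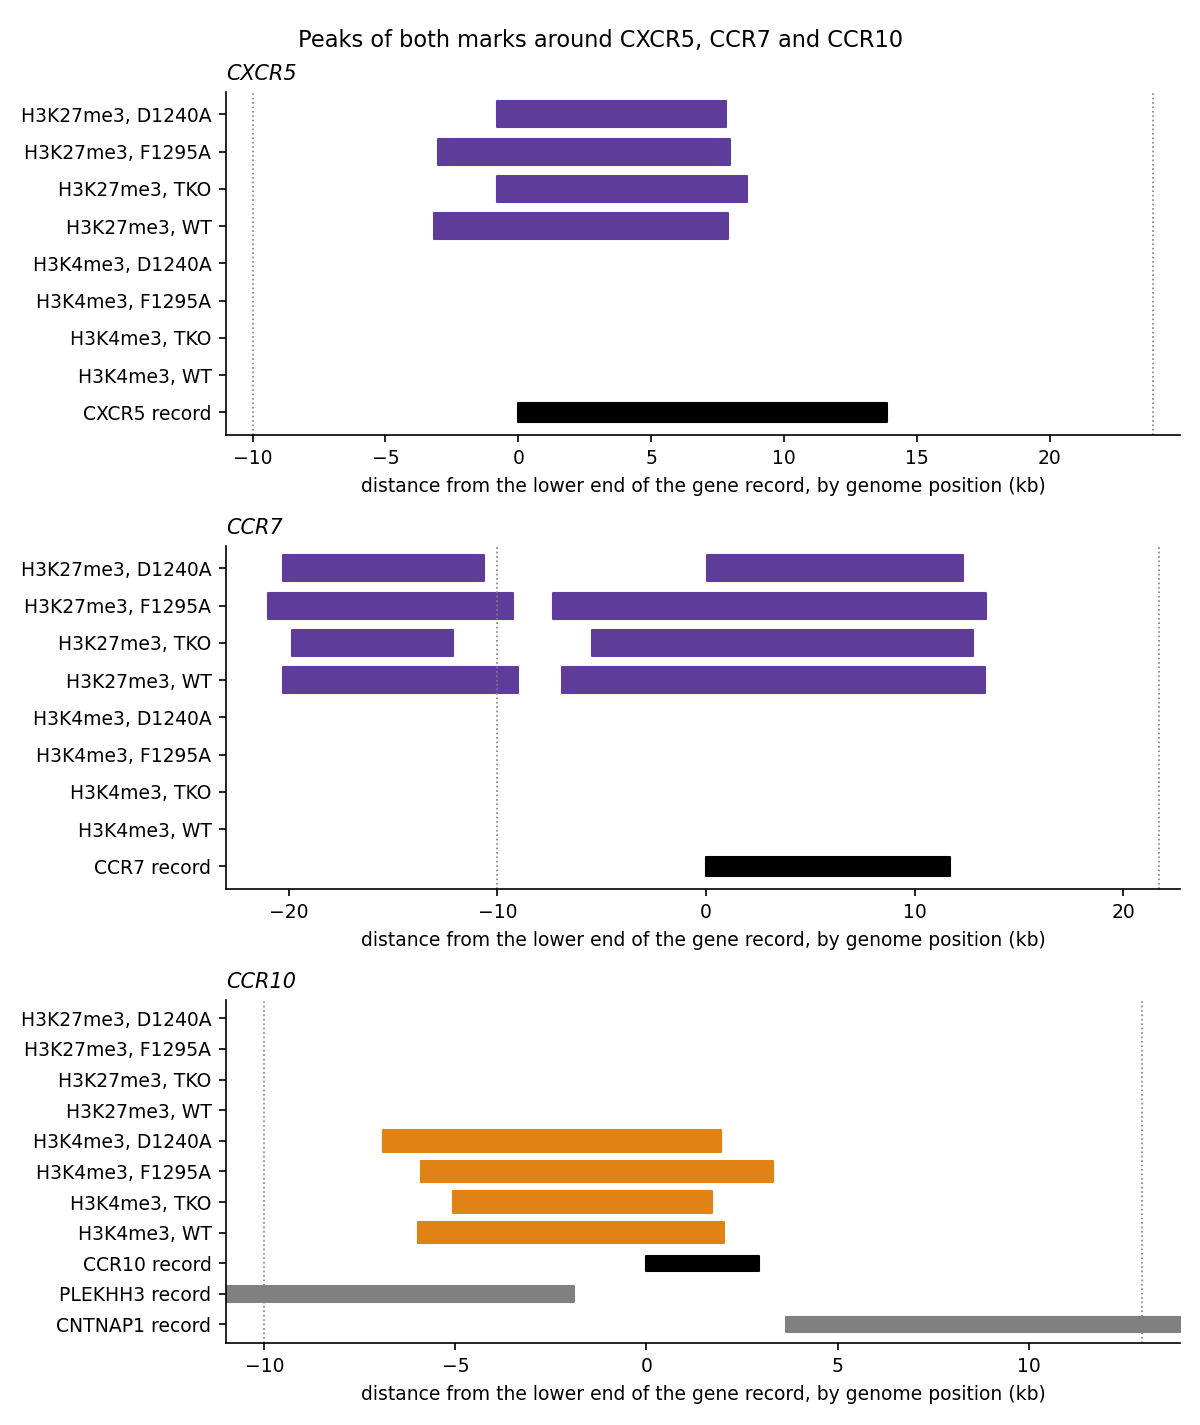
H3K27me3 (purple) and H3K4me3 (orange) peaks around CXCR5, CCR7 and CCR10 in each form, by distance in kb from the lower end of the gene record in genome order, with gene records below and dotted lines 10 kb beyond the record. The outer peak below CCR7 crosses the dotted line in F1295A and WT only, and the H3K4me3 peak at CCR10 spans the start of PLEKHH3.

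**Figure D5:**
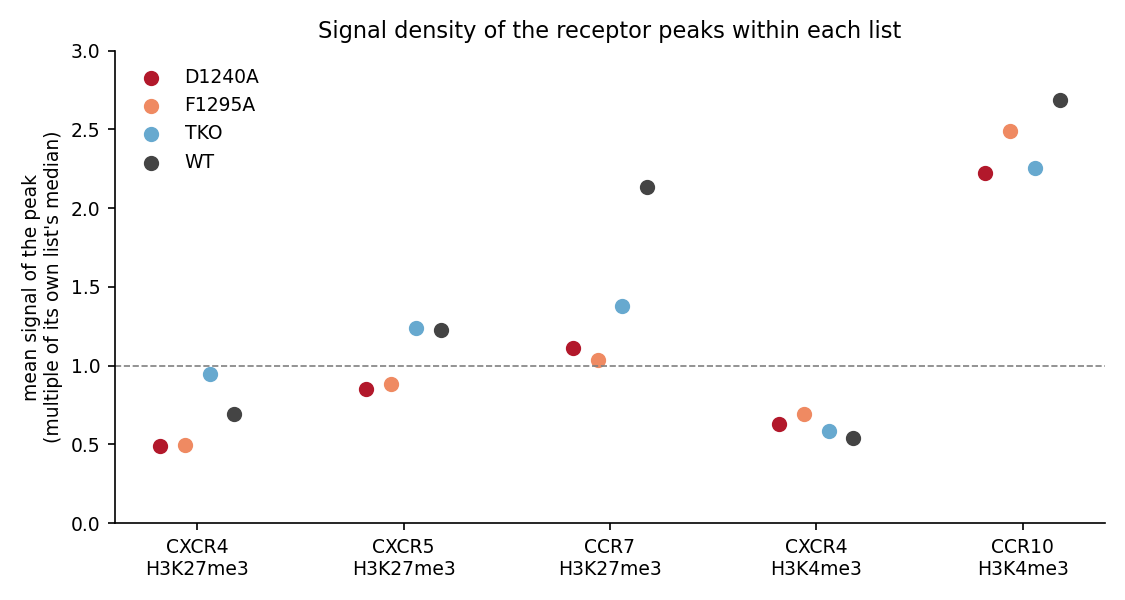
Mean signal of the peak at each marked receptor gene as a multiple of the median peak of its own list (dashed line at 1), with 1 point per form. CCR10 lies at 2.22 to 2.69 and CXCR4 H3K4me3 at 0.54 to 0.69, while the H3K27me3 peaks lie between 0.49 and 2.13. The outer peaks below CCR7 in F1295A (0.59) and WT (3.20) are not plotted.

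The plot of signal density sets these peaks side by side. Mean signal at CXCR4 was below the list median for both marks in every form, and at CCR10 it was above 2 times the median in every form. For H3K27me3 the peak over CCR7 was denser than the CXCR5 peak, and the CXCR5 peak denser than the CXCR4 peak, in each of the 4 lists.

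The other 6 receptor genes had no peak in the window in any list. CCR1 and CCR2, which serve monocytes in inflammation, CCR9, which guides lymphocytes to the small intestine, and CX3CR1, the fractalkine receptor, lie on chromosome 3. The nearest H3K4me3 to CCR1 was 510.2 to 510.6 kb away, at SACM1L. The nearest H3K4me3 peak to CCR2 was 613.4 to 614.7 kb away. H3K27me3 came within 317.1 kb of CCR2 in D1240A, 297.9 kb in TKO and 308.3 kb in WT, and within 2214 kb in F1295A. CX3CR1 lay 89.5 to 90.2 kb from H3K4me3, at SLC25A38.

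CCR6, the CCL20 receptor of memory B and T cells (chromosome 6, 167111795 to 167139141), was 110.5 to 111.6 kb from H3K4me3, at CEP43. Its nearest H3K27me3 was 3355 kb away in D1240A, 3132 kb in F1295A, 3132 kb in TKO and 910.6 kb in WT. CXCR3, which binds CXCL9, CXCL10 and CXCL11 (chromosome X, 71615919 to 71618511), was 77.7 to 80.3 kb from H3K4me3, at OGT, and 45.9 to 48.8 kb from H3K27me3. The X chromosome held 0.457% of the H3K27me3 peaks in D1240A, 0.528% in F1295A, 0.646% in TKO and 0.633% in WT, and 2.24% to 2.46% of the H3K4me3 peaks.

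No receptor gene was marked in a single form of any pair compared, and the background for each pair was small. For H3K27me3, 0.145% of all genes were marked in D1240A alone and 6.89% in WT alone when these 2 lists were compared. For F1295A beside WT the shares were 0.235% in F1295A alone and 6.41% in WT alone, and for TKO beside WT they were 4.35% in TKO alone and 2.04% in WT alone. Between the mutants, 0.901% were marked in D1240A alone and 1.47% in F1295A alone. For H3K4me3, 0.24% were marked in D1240A alone and 2.44% in WT alone. F1295A beside WT gave 1.48% in F1295A alone and 0.726% in WT alone, and TKO beside WT gave 0.295% in TKO alone and 4.21% in WT alone. Between the mutants these shares were 0.195% for D1240A and 3.15% for F1295A. Set against such shares, 0 of 10 is near the background in each comparison. The 3 comparisons with WT share the WT list.

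Of 17 other receptor genes of chemokines and related attractants, 14 had no H3K27me3 and 15 no H3K4me3 in any form. Over all genes 79.5% had no H3K27me3 and 47.0% no H3K4me3 in any form, so the H3K27me3 count is near the background. ACKR1, an atypical receptor that binds chemokines without G protein signalling, had 6.49 kb of H3K27me3 in WT and none in D1240A, F1295A or TKO. CMKLR1, the chemerin receptor, had 4.88 kb in WT and none in the others. A further 3 genes, named here after their values were seen, were marked in all 4 forms: CXCR1, a neutrophil receptor for CXCL8, with 7.19 to 11.4 kb of H3K27me3, and ACKR2 and S1PR2 with 2.12 to 2.89 and 2.70 to 4.46 kb of H3K4me3.

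Of 35 ligand genes, 28 had no H3K27me3 in any form, again near the share of all genes. H3K4me3 was absent in all forms from 33, beside 47.0% of all genes, and CXCL12, the CXCR4 ligand, was among them. H3K27me3 at CX3CL1, the CX3CR1 ligand, covered 8.75 kb in D1240A, 0 kb in F1295A, 12.7 kb in TKO and 16.004 kb in WT. CCL22 on the same chromosome had 7.10 kb in D1240A, 0 kb in F1295A, 13.2 kb in TKO and 13.9 kb in WT. CCL24 had no H3K27me3 in either mutant, 17.4 kb in TKO and 17.7 kb in WT. CCL17 had 5.57 kb in WT only and CCL19, a CCR7 ligand, 4.71 kb in TKO only. CCL27, a CCR10 ligand, had H3K4me3 over 2.70 kb in F1295A and 3.45 kb in WT and none in D1240A or TKO.

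Of 26 genes that carry the receptor signal, 16 had H3K4me3 in all 4 forms, beside 46.6% of all genes, and 8 had it in none, beside 47.0%. GNAI2, an inhibitory G protein subunit, had 6.47 kb of H3K4me3 in D1240A, 8.49 kb in F1295A, 6.14 kb in TKO and 7.10 kb in WT, and H3K27me3 over 8.77, 8.66, 7.71 and 11.5 kb in the same order. It was named after its values were seen, as was GNAI3. GNAI3 likewise had both marks in all 4 forms, with 1.895 to 4.08 kb of H3K4me3 and 7.20 to 7.81 kb of H3K27me3. H3K27me3 was absent in all forms from 22 of the 26 genes, near the 79.5% of all genes. GNAI1, another inhibitory G protein subunit, had 2.94 kb of H3K4me3 in D1240A, 3.02 kb in F1295A, none in TKO and 3.42 kb in WT. ARRB2, an arrestin that desensitises receptors, had 4.30 kb of H3K4me3 in F1295A only. GRK5, a receptor kinase, had H3K27me3 in TKO (30.7 kb) and WT (11.3 kb) and in neither mutant, and H3K4me3 in all forms.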

How the data were processed

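H3K27me3 and H3K4me3 peak lists of 4 forms were used as deposited. Per the submitters' processing notes the tools were Trimmomatic 0.36, FastQC 0.11.4, Bowtie2 2.4.5 and SEACR 1.3, and the build GRCh38. SEACR's mode, control and threshold, and the way replicates were combined, were not given in the sources used here. The deposited lists give the total and highest signal (coverage) of each peak with no stated scaling, so signal was compared only within a list. For H3K27me3 peaks at the receptor genes, the stretch given for the highest signal was the whole peak, unlike for H3K4me3. Whether the H3K27me3 values are as the caller wrote them or were changed when replicates were combined is unknown. Depth is unknown. Gene records and promoter sequences came from RefSeq tables of GRCh38.p14.

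Peaks were joined to gene records and 10 kb around them by at least 1 bp in Python 3.11.15 with numpy 2.4.6 and pandas 2.3.3, with plots from matplotlib 3.10.9. The steps were tested on simulated data. The members and gene lists were chosen with earlier results of these data known. A result at 1 locus is not reported here. Of the other lists, up to 6 genes marked in some forms and not in others are named, in order of marked bases. With 1 list per form and mark there was no test. Alternatives varied the window, peak strength, peak width and overlap.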

Additional observations from a re-analysis of the deposited data

How the results depend on the processing

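Of 56 recomputed counts of marked members per list, 50 were within 1.5 times the reported count. A fall from 3 members to 2 counted as within this limit. It occurred for H3K27me3 with windows of 0 and 1 kb in every form, and in TKO and WT with the stronger 50% or equal peak numbers. Of 112 counts of members marked in one form and not another, all reported as 0, 108 remained 0. Marked lengths depended more on the settings: of 100 recomputed values at genes with a mark, 41 moved by more than 1.5 times, 15 of them with a window of 0 kb, where H3K4me3 at CCR10 was 1.95 kb in D1240A, 2.96 kb in F1295A, 1.71 kb in TKO and 2.03 kb in WT. With the stronger 50% of each list, members with H3K27me3 numbered 1 in D1240A and 1 in F1295A (CCR7), members with H3K4me3 numbered 1 in each of the 4 forms (CCR10), and 1 member (CXCR5) had H3K27me3 in WT and not in D1240A, and 1 in WT and not in F1295A. Equal peak numbers kept 2083 for H3K27me3, the whole F1295A list, and 7396 for H3K4me3, the whole TKO list. Under them, 1 member (CXCR4) had H3K27me3 in D1240A and not in WT, and 1 in F1295A and not in WT. With a window of 0 or 1 kb, H3K27me3 was at 2 members in every form, CXCR5 and CCR7. A window of 25 kb, peaks of at least 1 kb, or a peak with 50% of its bases in the window left every count as reported. The width limit could change none, as the narrowest peak at a receptor gene was 3.82 kb. The H3K27me3 calls at CXCR4 in TKO and WT therefore depended on how long a list is. At CXCR5, equal peak numbers left H3K27me3 in every form. Its calls in D1240A and F1295A, and both marks at CXCR4, were lost with the stronger 50% of each list. That cut also depends on list length. The unknown depth limits all these calls. No paired analysis was possible because both replicates of a form share a list.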

Other observations

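Over the 4 H3K4me3 lists together, CX3CR1 lay in a stretch of 227.9 kb without an H3K4me3 peak that holds 4 complete protein-coding records, CCR8 among them. CCR6 lay in such a stretch of 824.0 kb, also with 4 records.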
